A study of Homo sapiens with 6 samples.

Results

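The FOXO transcription factors FOXO1, FOXO3 and FOXO4 and 7 genes known as their targets, IRS1, IRS2, SESN1, SESN3, CCNG2, BCL6 and TXNIP, were followed in a hepatocellular carcinoma line and its lenvatinib resistant derivative. The genes were chosen by symbol for their place in the AKT-FOXO pathway, and all 10 were found among the 26184 genes and loci of the deposited table. In total, 3 libraries came from Huh7 P, the untreated parental cell line, and 3 from Huh7 LR, the same line after 10 months of continuous lenvatinib that was raised from 1 to 20 μM. Both lines have a genotype given as WT. Lenvatinib is an inhibitor of several receptor tyrosine kinases. Huh7 LR was maintained in lenvatinib, but whether the drug was in the medium when RNA was taken, and whether the line is a single clone, is not given in the sources used here. The effects of the drug, of selection and of separate culture cannot be told apart in these libraries. The study describes the 3 samples of each line as independent.

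Library totals were 62738937 to 71427573 counts in Huh7 P and 63233655 to 70768720 in Huh7 LR. All 10 hepatocyte and liver cancer markers were expressed in both lines, with a summed level of 44300 to 53400 CPM (counts scaled to a common library size with edgeR's TMM factors) in Huh7 P and 57600 to 60600 CPM in Huh7 LR, and 6 of the 10 rose in Huh7 LR in edgeR's test (of all genes 23.3% rose and 22.4% fell). Of the few markers of other cell types that could be tested, 2 of 3 fibroblast and 2 of 3 endothelial markers rose, and 1 of 3 fibroblast and 1 of 2 leukocyte markers fell. Of 8 fibroblast markers, 2 had no count in any library, and the summed level was 7.73 to 9.1 CPM in Huh7 P and 7.45 to 11.2 CPM in Huh7 LR. Of 7 leukocyte markers, 3 had no count, and the sum was 62 to 67.6 CPM in Huh7 P and 9.83 to 13.8 CPM in Huh7 LR, most of it LYZ. The endothelial markers CDH5 and KDR had no count, and the sum of 5 such markers, mainly PECAM1, was 39.2 to 47.9 CPM in Huh7 P and 65.6 to 71.6 CPM in Huh7 LR. In bulk RNA, fewer cells with a transcript and less of it per cell cannot be told apart.

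FOXO proteins are forkhead transcription factors that restrain growth. When insulin, EGF or other growth factors activate PI3K, the kinase AKT phosphorylates FOXO proteins, which then bind 14-3-3 proteins and leave the nucleus. When AKT activity is low, FOXO proteins stay in the nucleus and activate genes of cell cycle arrest, stress defence, autophagy and, in the liver, glucose production. They also activate genes of the insulin pathway itself, such as IRS2, INSR and FOXO1. The study asked whether EGFR and PI3K/AKT signalling take part in lenvatinib resistance. Its western blots had higher levels of phosphorylated EGFR, PI3K and AKT in Huh7 LR than in Huh7 P. The values below are transcript levels and do not measure phosphorylation or location of the FOXO proteins.

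FOXO proteins bind DNA with the core GTAAACA, and RefSeq promoter windows (250 bases before to 50 after a transcript start, GRCh38.p14) were searched for it and its reverse complement TGTTTAC. All 10 genes matched, with 17 windows, and the core was present in 2 of them, against 3.42% of all 35116 windows. The windows with the core belonged to TXNIP and FOXO4, so these stretches are shown. In TXNIP (chr1:145996580-145996829, minus strand) the core begins 124 bases before the start. The capitals in this stretch mark the core and a pair of CACGAG motifs, which were added to the search after the window had been seen. E-box-like repeats of this kind in the TXNIP promoter are known as carbohydrate response elements, which bind the glucose-sensing factors MLXIP (MondoA) and MLXIPL (ChREBP). At least 2 CACGAG or CTCGTG motifs were present in 0.316% of all windows and at least 1 in 6.78%, a BCL6 and a FOXO3 window among them. In FOXO4 (chrX:71095864-71095890, plus strand) the core begins at base 24 after the start, and capitals mark it. These starts are those of RefSeq and differ from the GENCODE gene positions given below, and the FOXO4 core lies before the GENCODE start of the gene. A match of letters is a description and no evidence of binding.
TXNIP: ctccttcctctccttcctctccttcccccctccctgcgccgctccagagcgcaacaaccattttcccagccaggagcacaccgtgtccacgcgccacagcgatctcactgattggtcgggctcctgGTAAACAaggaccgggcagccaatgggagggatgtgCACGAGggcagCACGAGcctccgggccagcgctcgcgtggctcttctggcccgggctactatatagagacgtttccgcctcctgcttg
FOXO4: ccggcgagtgGTAAACAgagacgtcag

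Of the 10 genes, 9 rose and 1, IRS1, fell in Huh7 LR (adjusted p under 0.05, quasi-likelihood test of edgeR, Benjamini-Hochberg adjusted over all genes). The background is high in this comparison, since 23.3% of the 17531 genes and loci tested were higher and 22.4% lower by the same rule, 45.7% in all. Wherever 23.3% and 22.4% of all genes are given, they are over these genes and loci. Among the 14053 annotated genes tested, 3462 were higher and 3518 lower. The median log2 fold change of the 10 genes was 0.54, against 0 for all genes and loci tested. Only FOXO4 of the 10 passed a stricter rule modelled on the study's, a change above 2-fold at an adjusted p under 0.001, which 4.43% of all genes passed upwards and 1.78% downwards. All Huh7 LR libraries lay above all Huh7 P libraries for 8 genes (28.2% of all genes) and below them for 1 (27.7% of all genes), and either held for 55.9% of all genes. The calls of FOXO1, FOXO3, FOXO4, SESN3, CCNG2 and BCL6 held under all 14 alternative analyses, and those of IRS1, IRS2, SESN1 and TXNIP did not. Without Huh7 P replicate 1, only those 6 genes passed.

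**Figure D1:**
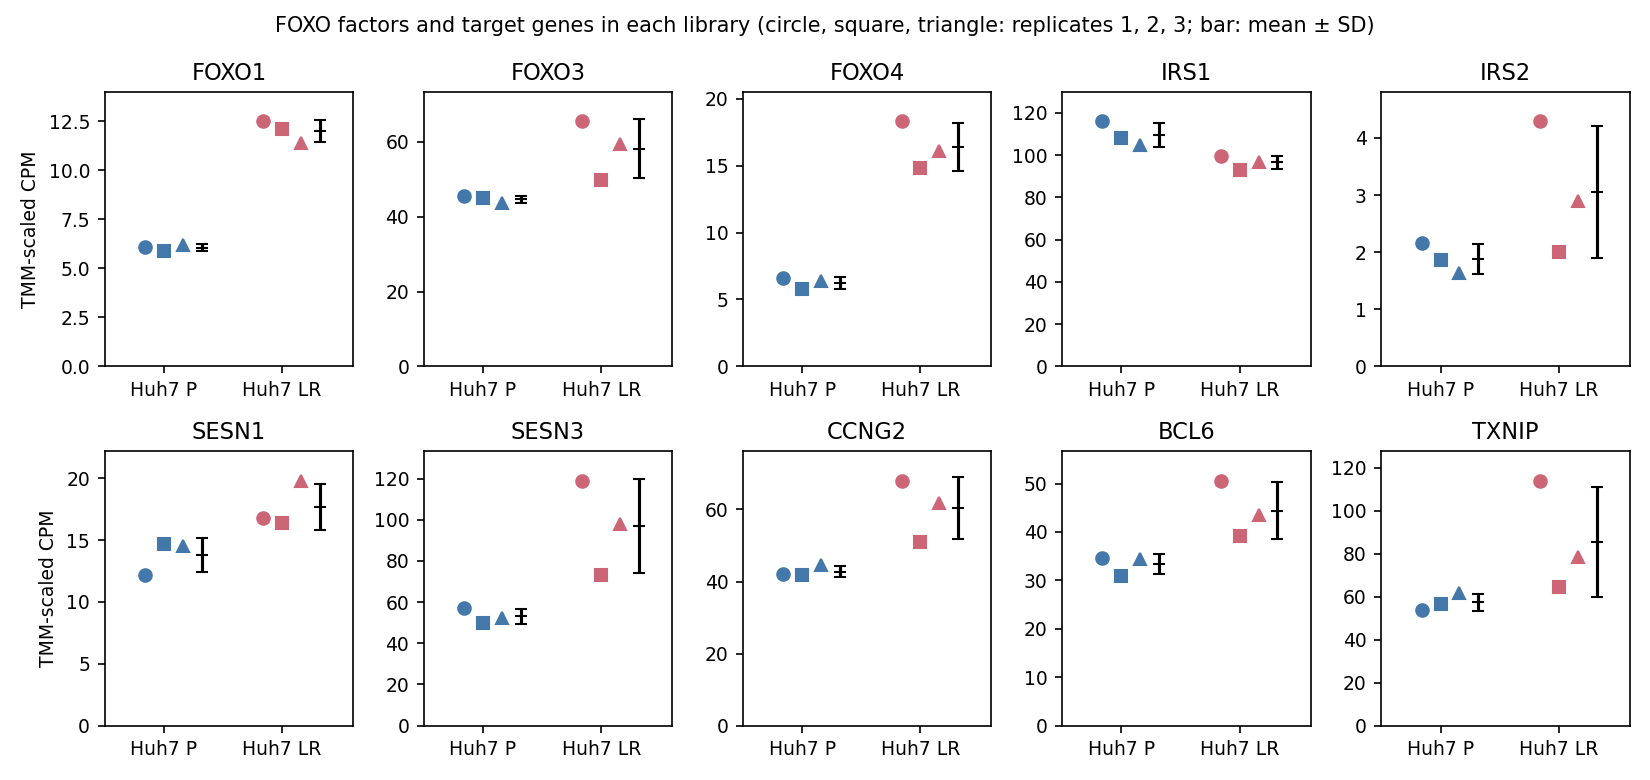
TMM-scaled CPM (y axis, linear from 0) of the 10 genes in each Huh7 P and Huh7 LR library, with circle, square and triangle for replicates 1, 2 and 3 and a bar for the mean ± SD (n = 3). The lines overlap for IRS2, do not overlap for the other 9 genes, and the Huh7 LR libraries are lower for IRS1.

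FOXO4 (ENSG00000184481, GRCh38 chromosome X, 71096197 to 71103535) showed the largest rise of the 10. It had 6.62, 5.75 and 6.39 CPM in the Huh7 P libraries and 18.3, 14.8 and 16.1 CPM in the Huh7 LR libraries. Every Huh7 LR library was thus more than 2-fold above every Huh7 P library. The log2 fold change was 1.39 (standard error 0.12, edgeR adjusted p = 5.52e-06), which is 2.62-fold, and it lay between 1.04 and 1.47 under the alternatives.

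FOXO1 (ENSG00000150907, chromosome 13, 40469953 to 40666597), the family member best known for switching on glucose production in the liver, had 6.09, 5.9 and 6.21 CPM in Huh7 P and 12.5, 12.1 and 11.4 CPM in Huh7 LR. The replicates lay close together in both lines, with a coefficient of variation of 2.58% and 4.68%. FOXO1 rose 1.98-fold (log2 fold change 0.98, standard error 0.10, edgeR adjusted p = 2.9e-05), at the edge of the 2-fold rule, which it passed with upper-quartile scaling and without Huh7 LR replicate 3. The log2 fold change of FOXO1 lay between 0.58 and 1.02 under the alternatives. FOXO3 (ENSG00000118689, chromosome 6, 108559835 to 108684774) was the most abundant FOXO transcript. It had 45.5, 45 and 43.7 CPM in Huh7 P and 65.5, 49.8 and 59.4 CPM in Huh7 LR. The lines did not overlap, but the second Huh7 LR library lay close to Huh7 P. The rise was 1.3-fold (log2 fold change 0.38, standard error 0.09, edgeR adjusted p = 0.00692). FOXO3 has a near-identical copy, FOXO3B, which was not analysed here, so reads from that copy may be part of the FOXO3 count or missing from it. FOXO6, the remaining family member, had 0 counts in all Huh7 P libraries, where a count of 0 allows up to 3 counts per library (counting error only), and 6, 6 and 2 counts in Huh7 LR, too few to test.

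Within each library, the log2 ratio of FOXO1 to FOXO3 counts was -2.9, -2.93 and -2.81 in Huh7 P, against -2.39, -2.05 and -2.38 in Huh7 LR. This ratio needs no scaling between libraries, and it was higher in every Huh7 LR library, by 0.61 on average (two-sided exact permutation test, p = 0.1, adjusted over 3 ratios 0.15). With 3 libraries against 3, 0.1 is the smallest p the test can give.

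IRS1 and IRS2 are the adaptor proteins that carry the signal from the insulin and IGF1 receptors to PI3K, and IRS2 is a classical FOXO target in hepatocytes. IRS1 (ENSG00000169047, chromosome 2, 226731317 to 226799759) was the abundant adaptor in both lines. Its level was 116, 108 and 105 CPM in Huh7 P and 99.6, 93.2 and 97 CPM in Huh7 LR, with no overlap. The log2 fold change was -0.18 (standard error 0.07, edgeR adjusted p = 0.0491). This small difference passed in 3 of 14 alternatives, and its adjusted p ranged from 0.0301 to 0.179.

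IRS2 (ENSG00000185950, chromosome 13, 109752698 to 109786568) was the least abundant of the 10 genes. It had 2.16, 1.86 and 1.64 CPM in Huh7 P and 4.29, 2 and 2.89 CPM in Huh7 LR. The second Huh7 LR library lay below the first Huh7 P library, so the lines overlapped. The log2 fold change was 0.69 (standard error 0.26, edgeR adjusted p = 0.046). It was 0.37 (edgeR adjusted p = 0.194) without Huh7 LR replicate 1 and 0.94 (edgeR adjusted p = 0.00602) without replicate 2, and the call also ended without Huh7 LR replicate 3 and without any of the Huh7 P libraries. Its FPKM was too low for the filter of the FPKM-based tests. The log2 ratio of IRS2 to IRS1 counts was -5.75, -5.85 and -5.99 in Huh7 P, against -4.53, -5.54 and -5.07 in Huh7 LR. The ratios did not overlap, with a difference of 0.82 in the means (two-sided exact permutation test, p = 0.1, adjusted 0.15), and IRS1 counts were far above IRS2 counts in every library.

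Sestrins are stress-induced proteins that hold back the growth kinase complex mTORC1 when amino acids are scarce, and SESN3 is the family member most closely tied to FOXO. SESN3 (ENSG00000149212, chromosome 11, 95165513 to 95232541) had 57.1, 49.9 and 52.3 CPM in Huh7 P and 119, 73.4 and 98.1 CPM in Huh7 LR. All Huh7 LR libraries were higher, with a wide spread among them. The rise was 1.82-fold (log2 fold change 0.87, standard error 0.14, edgeR adjusted p = 0.000502), and without Huh7 LR replicate 2 SESN3 also passed the 2-fold rule. SESN1 (ENSG00000080546, chromosome 6, 108986437 to 109094819), which is also a p53 target, had 12.2, 14.7 and 14.5 CPM in Huh7 P and 16.8, 16.4 and 19.8 CPM in Huh7 LR. The lines did not overlap, and the gap between them was small. Its log2 fold change was 0.36 (standard error 0.11, edgeR adjusted p = 0.0209), and 0.27 both without Huh7 P replicate 1 (edgeR adjusted p = 0.0921) and without Huh7 LR replicate 3 (edgeR adjusted p = 0.108). The log2 ratio of SESN3 to SESN1 was 2.22, 1.76 and 1.85 in Huh7 P, against 2.82, 2.16 and 2.31 in Huh7 LR, which overlapped (difference 0.48, two-sided exact permutation test, p = 0.2, adjusted 0.2).

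CCNG2 encodes cyclin G2, an unusual cyclin that slows the cell cycle. CCNG2 (ENSG00000138764, chromosome 4, 77157151 to 77433388) had 42, 41.8 and 44.5 CPM in Huh7 P and 68, 51.1 and 61.9 CPM in Huh7 LR. It rose 1.41-fold with no overlap (log2 fold change 0.50, standard error 0.10, edgeR adjusted p = 0.00177). On the deposited FPKM values the ratio of the means was 1.57, because the FPKM per count of this gene was not constant. Relative to the other genes, its log2 FPKM per count was -0.06, -0.07 and -0.07 in Huh7 P, against -0.11, 0.15 and 0.15 in Huh7 LR. Huh7 LR replicates 2 and 3 thus stood apart from the other 4 libraries, whereas the mean shift between the lines was 0 to 2 decimals for 8 of the other 9 genes and -0.01 for BCL6. A larger mean shift than that of CCNG2, 0.13, was present in 8.12% of 15843 genes. BCL6 (ENSG00000113916, chromosome 3, 187721377 to 187745727), a transcriptional repressor that FOXO factors induce, had 34.7, 31 and 34.4 CPM in Huh7 P and 50.6, 39.1 and 43.6 CPM in Huh7 LR. It rose 1.33-fold with no overlap (log2 fold change 0.41, standard error 0.10, edgeR adjusted p = 0.00528).

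TXNIP encodes thioredoxin-interacting protein, which binds thioredoxin and lowers glucose uptake, and whose transcription follows glucose as well as FOXO activity. TXNIP (ENSG00000265972, chromosome 1, 145992435 to 145996600) had 54, 56.5 and 61.5 CPM in Huh7 P and 114, 64.4 and 78.4 CPM in Huh7 LR. The first Huh7 LR library was far above the others, while the second lay just above the highest Huh7 P library. The log2 fold change was 0.58 (standard error 0.16, edgeR adjusted p = 0.0138). Without Huh7 LR replicate 1 it was 0.32 (edgeR adjusted p = 0.017). The call was lost with DESeq2's Wald test (adjusted p = 0.0641) and without Huh7 P replicate 1 (edgeR adjusted p = 0.0567).

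**Figure D2:**
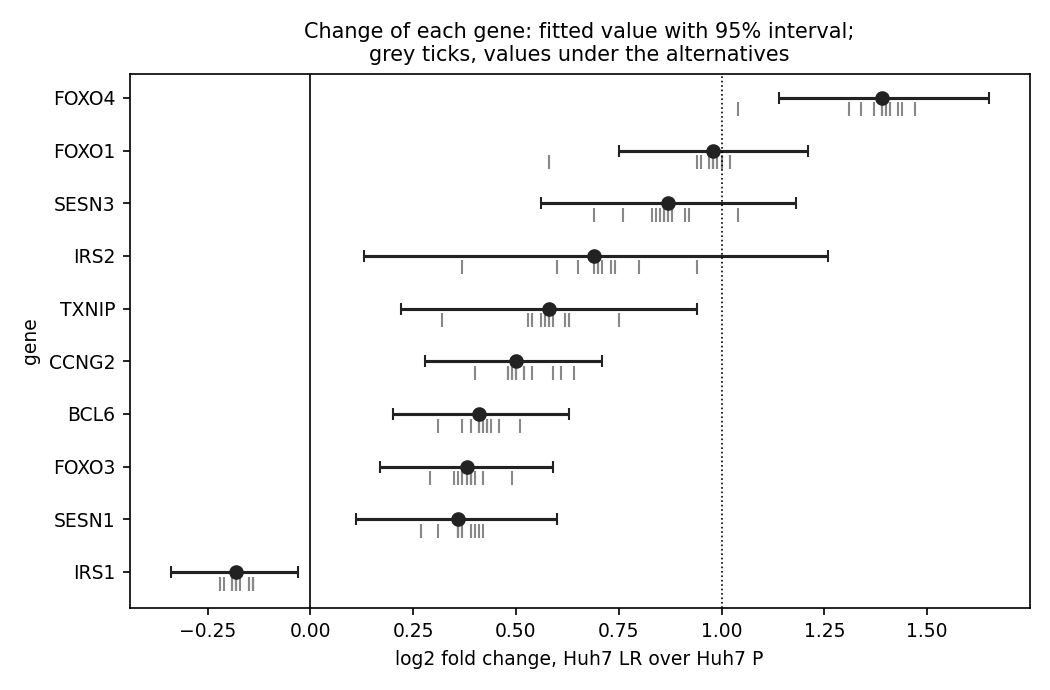
Fitted log2 fold change of each gene in Huh7 LR over Huh7 P (x axis) with its 95% confidence interval from edgeR's fit, with grey ticks for the values under the alternative analyses and a dotted line at 2-fold. FOXO4 at 1.39 has the only interval wholly above the dotted line, and IRS1 at -0.18 is the only gene to the left of 0.

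Some exon sequence of these genes is shared with other annotated genes in GENCODE release 29. FOXO1 shares 269 bases (4.32% of its exons) with LINC00598 on the same strand, and IRS2, SESN1, SESN3 and BCL6 share exon bases with antisense genes, 0.88% to 7.09% of their exons for a single partner (BCL6 has 2, at 2.88% and 5.36%). These partners were not analysed here. Whether counting used strand is not given in the sources used here, so reads of such partners cannot be told apart from those of the 5 genes. Over the 40 nearest expressed genes on the chromosome, the median log2 fold change lay between -0.15 (FOXO1) and 0.17 (TXNIP), against -0.03 for all 12293 expressed annotated genes. For FOXO4, whose log2 fold change was 1.39, the median of its neighbours was -0.05. Of the 40 neighbours of TXNIP, 16 were higher and 2 lower in edgeR's test, against 3071 and 3416 of the 12293 genes, and the part of this in the TXNIP result was not tested.

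The Huh7 LR libraries did not contribute equally. Replicate 1 had the highest level of the Huh7 LR libraries for 9 of the 10 genes, and replicate 2 the lowest for 9 of the 10. Among all 13877 tested genes with a mean of at least 1 CPM, replicate 1 was the highest for 34.6% and replicate 2 the lowest for 37.9%. The exceptions were SESN1, which was highest in replicate 3, and FOXO1, which was lowest in replicate 3. The coefficient of variation in Huh7 LR was 37.8% for IRS2, 29.7% for TXNIP and 23.4% for SESN3, against a median of 8.66% for genes with at least 1 CPM. In Huh7 P it was 13.9%, 6.59% and 6.85% for the same genes, against a median of 6.01%. Without Huh7 LR replicate 1, 8 genes were still higher, and without Huh7 LR replicate 2, 9 were. The TMM factor of Huh7 LR replicate 1 was 1.03 and its share of counts on loci without an annotated gene was 3.35%, the highest of the 6 libraries in both, and the part of these in the pattern was not tested.

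**Figure D3:**
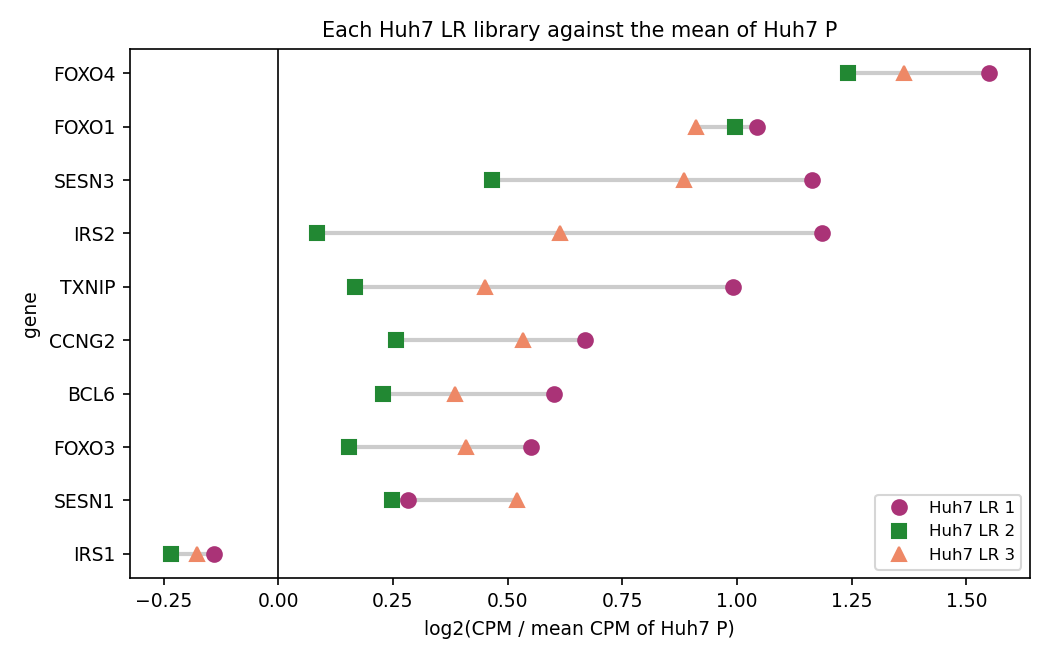
Level of each gene in each Huh7 LR library as log2 of its CPM over the mean CPM of Huh7 P (x axis), with circle, square and triangle for Huh7 LR replicates 1, 2 and 3 and a grey bar for their range. Replicate 1 lies at the right end for 9 genes and replicate 2 at the left end for 9, and IRS2, TXNIP and SESN3 have the widest ranges.

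Levels of different genes were compared per length with the deposited FPKM values. In Huh7 P the order from high to low was TXNIP (18 ± 1.01 FPKM, SD, n = 3), IRS1 (10.4 ± 0.664), BCL6 (8.94 ± 0.653), CCNG2 (8.3 ± 0.227), FOXO3 (5.6 ± 0.171), SESN3 (5.12 ± 0.391), SESN1 (4.01 ± 0.393), FOXO4 (1.74 ± 0.134), FOXO1 (0.97 ± 0.0234) and IRS2 (0.212 ± 0.0315). Only the neighbours BCL6 and CCNG2, and FOXO3 and SESN3, overlapped between libraries. In Huh7 LR, TXNIP (27.5 ± 8.43 FPKM) was still first, and FOXO1 (1.96 ± 0.101) and IRS2 (0.352 ± 0.136) were still last. In between, CCNG2 (13 ± 1.31), BCL6 (12.1 ± 1.64), SESN3 (9.54 ± 2.32) and IRS1 (9.32 ± 0.392) overlapped each with the next, and so did SESN1 (5.22 ± 0.434) and FOXO4 (4.66 ± 0.547). FOXO4 FPKM thus moved from below SESN1 with no overlap to a level that overlapped with it. With CPM per kilobase of annotated exon in place of FPKM, the first and the last 2 genes kept their places in both lines, and FOXO4 (4.76) lay above SESN1 (3.45) in Huh7 LR.

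The other genes of the pathway were described with lists written from general knowledge, without the 10 genes above. Of 40 further genes that FOXO factors are known to induce, 38 were tested, of which 21 rose (23.3% of all genes did), 5 fell (22.4% of all genes did) and 12 did not pass, with a median log2 fold change of 0.42. Past 2-fold were PIK3IP1, an inhibitor of PI3K, from 2.37 ± 0.517 to 10.3 ± 1.97 CPM (SD, n = 3, log2 fold change 2.12, edgeR adjusted p = 7.9e-06), and TNFSF10, the death ligand TRAIL, from 6.73 ± 0.168 to 21 ± 1.15 CPM (log2 fold change 1.64). GABARAPL1, which takes part in autophagosome formation, rose from 44.2 ± 2.31 to 92.5 ± 4.8 CPM (log2 fold change 1.07), and CDKN1A, the cell cycle inhibitor p21, from 35.2 ± 1.86 to 71 ± 6.2 CPM (log2 fold change 1.01). FBXO32, the ubiquitin ligase atrogin-1, rose as well, with levels of 0.207 and 0.895 CPM. PRDX3, a mitochondrial peroxidase, and EIF4EBP1, a brake on translation, had the largest falls, with log2 fold changes of -0.55 and -0.44. Of the 21 genes that rose, 16 had their highest Huh7 LR level in replicate 1, against 39.9% of all higher genes with at least 1 CPM. The lowest level was in replicate 2 for 7 of the 21 and in replicate 3 for 10, against 38.6% and 22.4% of those higher genes.

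PCK1, IGFBP1 and G6PC, which FOXO1 activates in hepatocytes, were low in both lines. PCK1, a rate-limiting enzyme of gluconeogenesis, had 12, 7 and 25 counts in Huh7 P, against 23, 11 and 15 in Huh7 LR. IGFBP1, a secreted IGF-binding protein, had 0, 0 and 7 counts in Huh7 P, against 4, 8 and 3 in Huh7 LR. G6PC, the glucose-6-phosphatase of the liver, had 0, 9 and 0 counts in Huh7 P, against 90, 35 and 68 in Huh7 LR, which is a mean of 0.0486 and 0.959 CPM. G6PC was higher in every Huh7 LR library and passed the test (edgeR adjusted p = 0.00173), while the lines overlapped for PCK1 and IGFBP1. The textbook targets CDKN1B (p27; log2 fold change -0.24, edgeR adjusted p = 0.0111) and BCL2L11 (BIM; log2 fold change 0.28, edgeR adjusted p = 0.00616) moved in opposite directions. SOD2 (ENSG00000112096, log2 fold change 0.23, edgeR adjusted p = 0.0925) and CAT (log2 fold change 0.15, edgeR adjusted p = 0.198), which detoxify reactive oxygen species, did not pass the test. These 7 genes were chosen after their values had been seen.

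Of 11 growth genes that FOXO activity is known to lower, 9 were tested, of which 0 rose and 5 fell in edgeR's test, against 23.3% and 22.4% of all genes, with a median log2 fold change of -0.46. The number that rose was also 0 at an unadjusted p under 0.05 and with DESeq2 and limma. MYC, a growth-promoting transcription factor, fell from 86 ± 6.12 to 30 ± 4.1 CPM (log2 fold change -1.52, edgeR adjusted p = 1.35e-06). CCNB1, the mitotic cyclin B1, fell from 174 ± 10.1 to 108 ± 10.5 CPM (log2 fold change -0.68). FOXM1, PLK1 and CCNB2, which also serve mitosis, made up the rest of the falls. CCND1, the G1 cyclin that FOXO factors repress, had 441 and 469 CPM (log2 fold change 0.09, edgeR adjusted p = 0.306). CCND1, FOXM1, PLK1 and CCNB2 were named after their values had been seen.

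**Figure D4:**
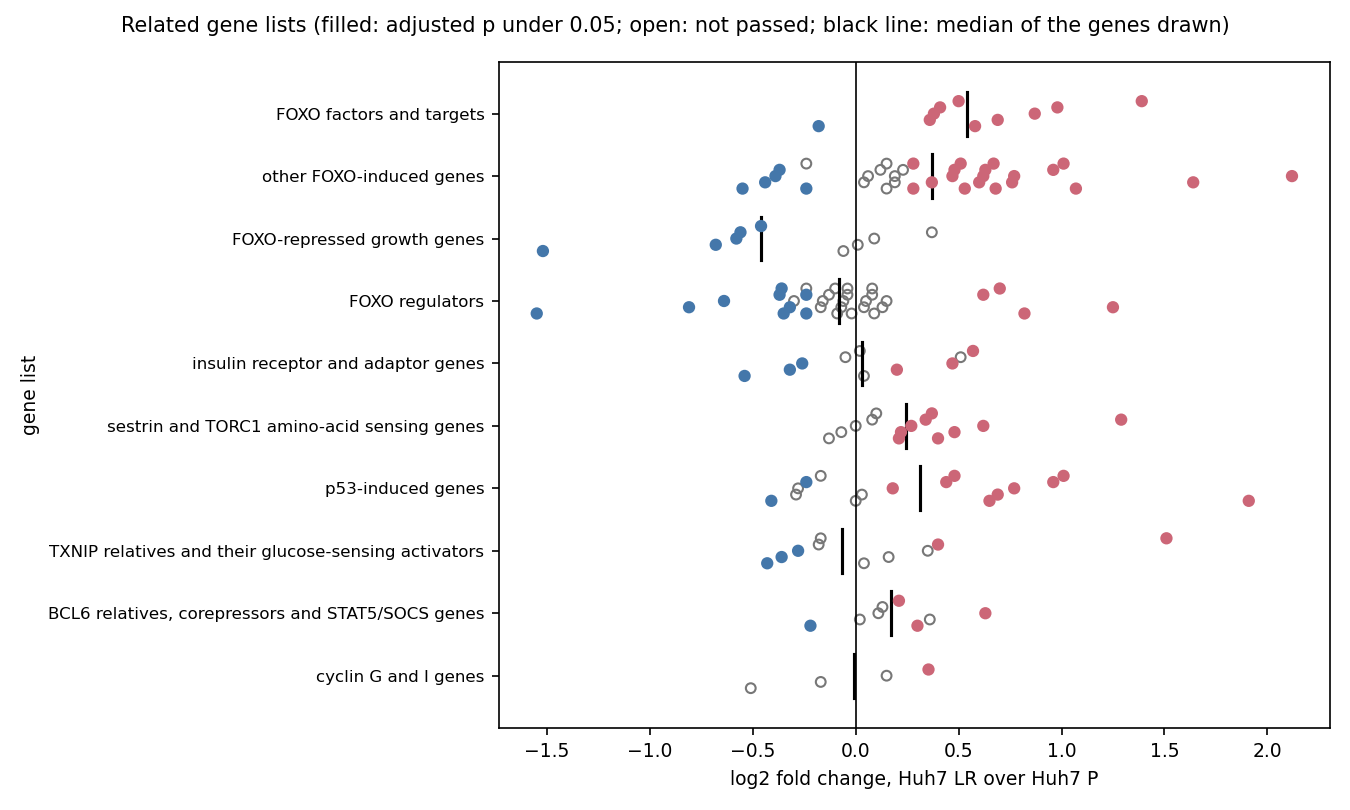
Log2 fold change in Huh7 LR over Huh7 P (x axis) of the genes of each list (rows) with a mean of at least 1 CPM in one of the lines, filled red or blue for a rise or fall past an adjusted p of 0.05 and open where not, with a black line at the median. The 10 FOXO factors and targets are left out of the other rows, in which no FOXO-repressed growth gene is filled red and 5 are filled blue.

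Among 33 genes of proteins that modify or carry FOXO factors, 32 were tested, of which 4 rose (23.3% of all genes did), 9 fell (22.4% of all genes did) and 19 did not pass, with a median log2 fold change of -0.08. SGK1, a kinase that phosphorylates FOXO3 at AKT sites, rose from 68 ± 4.06 to 162 ± 11.3 CPM (log2 fold change 1.25, edgeR adjusted p = 9.01e-07). SFN, the 14-3-3 sigma protein, fell from 46.4 ± 1.65 to 15.9 ± 0.459 CPM (log2 fold change -1.55, edgeR adjusted p = 1.73e-07). SIRT2, a deacetylase of FOXO proteins, had a log2 fold change of 0.82, and MAPK9, the stress kinase JNK2, one of -0.81. AKT1 and AKT2 were chosen after their values had been seen. AKT1 had a log2 fold change of 0.13 (edgeR adjusted p = 0.237) and AKT2 one of 0.05 (edgeR adjusted p = 0.604).

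Around IRS1 and IRS2, 3 of 10 receptor and adaptor genes tested rose and 3 fell, which is near the 23.3% and 22.4% of all genes. INSR, the insulin receptor and also a FOXO-induced gene, had a log2 fold change of 0.47, and GRB10, an adaptor that dampens insulin signalling, one of 0.57. IGF1R and GAB1 had log2 fold changes of -0.54 and -0.32. Around the sestrins, 9 of 14 genes of amino-acid sensing by mTORC1 rose and 0 fell in edgeR's test (median log2 fold change 0.25), against 23.3% and 22.4% of all genes. The largest rises were those of CASTOR1, an arginine sensor, from 1.39 ± 0.325 to 3.41 ± 0.546 CPM (log2 fold change 1.29), and RRAGD, a Rag GTPase (log2 fold change 0.62). The number that fell was also 0 at an unadjusted p under 0.05 and with DESeq2 and limma, and the lowest log2 fold change among them was -0.13. Of 17 p53-induced genes tested, which share CDKN1A, SESN2, GADD45A, BBC3, MDM2 and CCNG1 with other lists, 9 rose and 2 fell, against 23.3% and 22.4% of all genes. TP53INP1, a stress protein of autophagy and cell death, rose from 8.36 ± 0.62 to 31.4 ± 7.23 CPM (log2 fold change 1.91), whereas MDM2, the ubiquitin ligase of p53, and AEN had log2 fold changes of -0.24 and -0.41. The call of MDM2 was lost in 7 of 14 alternatives, with an adjusted p of up to 0.151 (edgeR, without Huh7 P replicate 1).

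Around TXNIP, 2 of 10 related genes tested rose and 3 fell, near the shares of all genes (23.3% and 22.4%). MLXIPL, the glucose-sensing factor ChREBP named with the TXNIP sequence above, rose from 27.9 ± 3.22 to 79.5 ± 11.2 CPM (log2 fold change 1.51, edgeR adjusted p = 2.84e-06). Its relative MLXIP, or MondoA, fell from 70 ± 6.66 to 52.1 ± 2.4 CPM (log2 fold change -0.43, edgeR adjusted p = 0.00148). ARRDC1, an arrestin-domain relative of TXNIP, had a log2 fold change of 0.40, and TXN2, the mitochondrial thioredoxin, one of -0.36. Among 9 tested genes around BCL6, 3 rose and 2 fell, also near the 23.3% and 22.4% of all genes. SOCS2, a feedback inhibitor of STAT5 signalling, had a log2 fold change of 0.63 and HDAC3, a corepressor subunit, one of 0.30. NCOR1, another corepressor, had one of -0.22. BCOR, the corepressor named for its binding to BCL6, had counts of 40, 40 and 56 in Huh7 P, against 0 in each Huh7 LR library, at least 15.5-fold lower against 3 counts per library. Of 4 genes around CCNG2, only CCNI (log2 fold change 0.35) rose in edgeR's test and 0 fell, against 23.3% and 22.4% of all genes. At an unadjusted p under 0.05, 2 were higher and 1 lower, and with DESeq2 and limma 2 rose and 0 fell.

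The profiles most like those of FOXO4 and IRS1, the gene with the largest rise and the only one that fell, were searched for among 12292 annotated genes with at least 1 CPM over the 6 libraries. Likeness was the root-mean-square difference of log2(CPM + 0.5) after each gene was centred. Nearest to FOXO4 were CHRD (0.0397), EBF4 (0.0409) and SLC38A3 (0.0471), whose log2 fold changes were 1.57, 1.47 and 1.35. Nearest to IRS1 were SP1 (0.0224), EML3 (0.024) and ZYG11A (0.0253), with log2 fold changes of -0.17, -0.17 and -0.19.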

How the data were processed

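RNA of 3 Huh7 P and 3 Huh7 LR samples was sequenced by a company. Per the labels, mRNA was isolated by poly(A) selection, but the same protocol names honeybee larvae as the source of the RNA, so it may not have been written for these samples. The authors deposited one table with raw read counts per gene and FPKM values (fragments per kilobase, scaled to depth) for each sample. Per the labels, the processing notes list TopHat2, Cufflinks, DESeq and mm10, a mouse build, whereas the gene identifiers are human. Whether these listed tools made the deposited counts, and with which strand setting, cannot be told from the sources used here. The table had 26218 lines, of which 34 named no gene and were left out; 6210 of the other 26184 are loci without an annotated gene.

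Counts were tested with edgeR 4.0.16 (R 4.3.3), with TMM factors, filterByExpr (minimum 10, total 15), the quasi-likelihood test and Benjamini-Hochberg adjustment over 17531 genes and loci, all 10 genes among them. Log2 fold changes are Huh7 LR over Huh7 P. Alternatives used DESeq2 1.42.0, limma 3.58.1 on log2 FPKM values with 0.1 or 1 added (genes of 0.5 FPKM or more in 3 libraries), other scalings and filters, a replicate block, and each library left out. The tests were checked on simulated counts. Log2 ratios used counts with 0.5 added. Positions are from GENCODE 29 (GRCh38).

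The 10 genes, the lists and the alternatives were chosen with earlier results of these data known. From each list the 2 largest rises and the 2 largest falls at an adjusted p under 0.05 with at least 1 CPM were named, and any gene past 2-fold at an adjusted p under 0.001. Nothing ties the samples of a line to separate derivations of it, so p-values measure the spread between these samples. Confidence intervals are from edgeR's fit and include the spread between libraries, whereas limits on counts of 0 cover counting error only.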

Additional observations from a re-analysis of the deposited data

How the results depend on the processing

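Of 138 log2 fold changes of the 10 genes under the alternatives, 118 kept their direction and side of the threshold, 20 kept their direction but no longer passed, and 0 reversed. For the genes named from the related lists these numbers were 417 and 12 of 429, with 0 reversed. Of these 12, 7 were of MDM2, and the calls of HDAC3 (without Huh7 P replicate 1, edgeR adjusted p = 0.057, or 2, 0.0566), NCOR1 (without Huh7 P replicate 2, 0.0797) and GAB1 (limma, 0.0817 and 0.083) were also lost. The number of the 10 genes that differed was 10, and 6 to 9 with 1 library left out, the lowest without Huh7 P replicate 1. The number past 2-fold was 1, was 2 with upper-quartile scaling (FOXO1 and FOXO4), and 1 to 2 with 1 library left out (with SESN3 without Huh7 LR replicate 2, with FOXO1 without Huh7 LR replicate 3). Of 134 genes tested in the related lists, 73 differed (45.7% of all genes did), and 56 to 76 did with 1 library left out. The lowest was without Huh7 P replicate 2, when the calls over all genes also dropped, from 4093 higher and 3923 lower to 3349 and 3002. IRS1 passed in 3 of 14 alternatives, IRS2 in 7 of 12, and SESN1 and TXNIP in 12 of 14, and apart from fewer libraries in the fits that leave one out, the cause was not tested. No scaling moved the median log2 fold change of all genes by more than 0.047.

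With the replicate block, 9 of the 10 genes differed, and IRS1 had a log2 fold change of -0.18 (edgeR adjusted p = 0.0563). Samples of the same number deviated together only weakly (correlations 0.073, 0.099 and 0.029), and Huh7 P replicate 3 correlated best with Huh7 LR replicate 1 (0.052), so the numbers were not taken as pairs. By CPM per kilobase in place of FPKM, BCL6 and FOXO3 took ranks 5 and 3 in Huh7 P, and in Huh7 LR IRS1, SESN3, CCNG2, FOXO3, BCL6, FOXO4 and SESN1 took ranks 2 to 8 in this order. The sum of FOXO3 and FOXO3B counts was not run, as FOXO3B was not analysed here. Depth limits IRS2 most, with 107 to 280 counts per library.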

Other observations

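BCOR, without a count in Huh7 LR, lies among neighbours with the same pattern on chromosome X (GRCh38). The 5 genes with any count between 38269163 and 40177329, a span of 1.91 Mb, were RPGR, OTC, TSPAN7, MID1IP1 and BCOR, and each had 0 counts in all 3 Huh7 LR libraries. In Huh7 P, MID1IP1 had counts of 126, 110 and 136, BCOR 40, 40 and 56, TSPAN7 11, 18 and 11, RPGR 11, 6 and 7 and OTC 0, 10 and 0. Against 3 counts per library, MID1IP1 was at least 42.3-fold lower in Huh7 LR. SRPX, the nearest gene before the span with any count, had counts of 0, 0 and 0 in Huh7 P, against 2, 4 and 0 in Huh7 LR. Beyond it on that side and next to the span on the other, SYTL5 and ATP6AP2 were counted in both lines, with 180, 175 and 225 counts of SYTL5 in Huh7 P, against 255, 376 and 300 in Huh7 LR, and 5531, 4532 and 4958 counts of ATP6AP2 in Huh7 P, against 4983, 5131 and 4534 in Huh7 LR. These genes other than BCOR were chosen after their values had been seen.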
